A study of Homo sapiens with 6 samples.

Results

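The BCL2 family decides whether the outer mitochondrial membrane stays closed or opens in apoptosis, and 10 of its genes outside the p53 targets BAX, BBC3 and PMAIP1 are described here. They were taken by symbol from the 27961 genes counted in each library, and all 10 were found. They were BCL2, BCL2L1, BCL2L2, MCL1, BAK1, BCL2L11, BID, BAD, BMF and BIK. The cells were SH-SY5Y, a human neuroblastoma line with sympathetic neuron features, infected by centrifugation with hairpin-bearing virus in 8 µg/mL polybrene. Every group, controls included, was then kept in puromycin (2 µg/mL) for 3 days, beginning 48 hours after the virus was added. The 6 libraries of total RNA depleted of ribosomal RNA formed 3 groups of 2. They carried a hairpin against TARDBP (labelled TRCN0000016038), control hairpin 1 (SHC007) or control hairpin 2 (SHC016). TARDBP encodes TDP-43, a nuclear RNA-binding protein known for its aggregates in amyotrophic lateral sclerosis. A single TARDBP hairpin was used, so its sequence-specific side effects and the loss of TARDBP cannot be told apart. No source used here says that libraries of a group came from separate cultures, so p-values rest on how far the libraries of a hairpin differ, and that spread could be technical only.

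Proteins of this family fall into 3 functional classes. The death-restraining members BCL2, BCL-XL (from BCL2L1), BCL-W (from BCL2L2) and MCL1 hold the effectors BAK and BAX in check. The BH3-only proteins, among them BIM (from BCL2L11), BID, BAD, BMF and BIK, bind the restraining members or activate the effectors, which then release cytochrome c from mitochondria. Neurons and neuroblastoma cells are known to depend on more than 1 restraining member.

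Library totals ran from 18605745 to 21698339 counts, of which 8079 to 9308 fell on the 10 genes. TARDBP stood at 18.9 and 24.0 CPM (the standard depth-scaled read count, with library sizes adjusted by TMM) with its own hairpin and at 72.4 to 92.7 CPM in the 4 control libraries. Of 10 noradrenergic neuroblastoma markers, 8 were above 1 CPM in every library. Together the 10 stood at 993 to 1119 CPM with the TARDBP hairpin. They stood at 1615 to 1863 CPM with control hairpin 1 and 1359 to 1554 with control hairpin 2. The markers did not move alike. DBH had a mean of 20.1 CPM with the TARDBP hairpin, against 359 and 228 CPM in control hairpins 1 and 2. GATA3, at 222 CPM against 199 and 153 CPM, was the only marker whose mean lay above both controls. Of 7 markers of other cell types, 5 were at or below 1 CPM in every library, and CDH5 had no count in any library. Their sum was 5.48 to 8.05 CPM with the TARDBP hairpin, 1.62 to 2.85 with control hairpin 1 and 2.42 to 3.20 with control hairpin 2. EPCAM was at 3.36 and 6.86 CPM with the TARDBP hairpin and at 0.392 to 1.17 CPM in the control libraries. The part of these marker levels in the results below was not tested.

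The promoters of 3 members are shown. BCL2 and BCL2L1 are restraining genes whose RNA moved in opposite directions, and BCL2L11 is an activator gene known as a target of forkhead (FOXO) factors. The 250 bases before the annotated start are from RefSeq, build GRCh38.p14, and are not coordinates of the hg19 build used for the counts. For BCL2L1, which has more than 1 start in the table, the first listed is shown. Capitals mark a forkhead core, GTAAACA, on either strand.
BCL2L11, chr2:111120664-111120913, plus strand: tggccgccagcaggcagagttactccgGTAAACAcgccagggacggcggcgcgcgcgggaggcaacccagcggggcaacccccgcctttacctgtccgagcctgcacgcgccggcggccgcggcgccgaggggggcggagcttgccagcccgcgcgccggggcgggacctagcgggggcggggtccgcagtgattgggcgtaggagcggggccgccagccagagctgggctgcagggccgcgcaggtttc
BCL2, chr18:63319770-63320019, minus strand: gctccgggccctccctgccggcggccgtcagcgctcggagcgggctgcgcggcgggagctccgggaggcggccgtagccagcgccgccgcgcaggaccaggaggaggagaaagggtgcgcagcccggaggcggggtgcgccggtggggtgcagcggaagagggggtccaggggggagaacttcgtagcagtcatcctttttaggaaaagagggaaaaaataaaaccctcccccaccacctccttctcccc
BCL2L1, chr20:31723964-31724213, minus strand: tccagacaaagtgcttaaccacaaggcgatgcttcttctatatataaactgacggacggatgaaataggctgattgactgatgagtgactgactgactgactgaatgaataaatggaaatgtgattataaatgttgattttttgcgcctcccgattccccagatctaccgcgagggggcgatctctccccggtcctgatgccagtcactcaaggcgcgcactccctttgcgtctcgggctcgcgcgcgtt

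Of 14 promoter windows of 7 members in the table, 1 held GTAAACA, that of BCL2L11, against 2.98% of all 35116 windows of the same length. The E-box CACGTG was in 2 BID windows that overlap each other (6.34% of all windows), and neither E2F site, TTTGGCGC or TTTCGCGC, was in any member's window (0.968% of all windows). All were sought on both strands and the 3 motifs do not overlap each other. Base composition differed between the printed windows, with 76.8% G and C for BCL2L11, 70% for BCL2 and 50% for BCL2L1. TDP-43 binds GU-rich RNA. The longest run of alternating G and U in any spliced protein-coding GENCODE transcript of a member was 9 bases, in BCL2L11, and none of the 10 members held a run of 10 bases or more. Such a run was present in 8.88% of 19669 protein-coding genes. Introns, where TDP-43 also binds, are not in these transcripts.

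**Figure D1:**
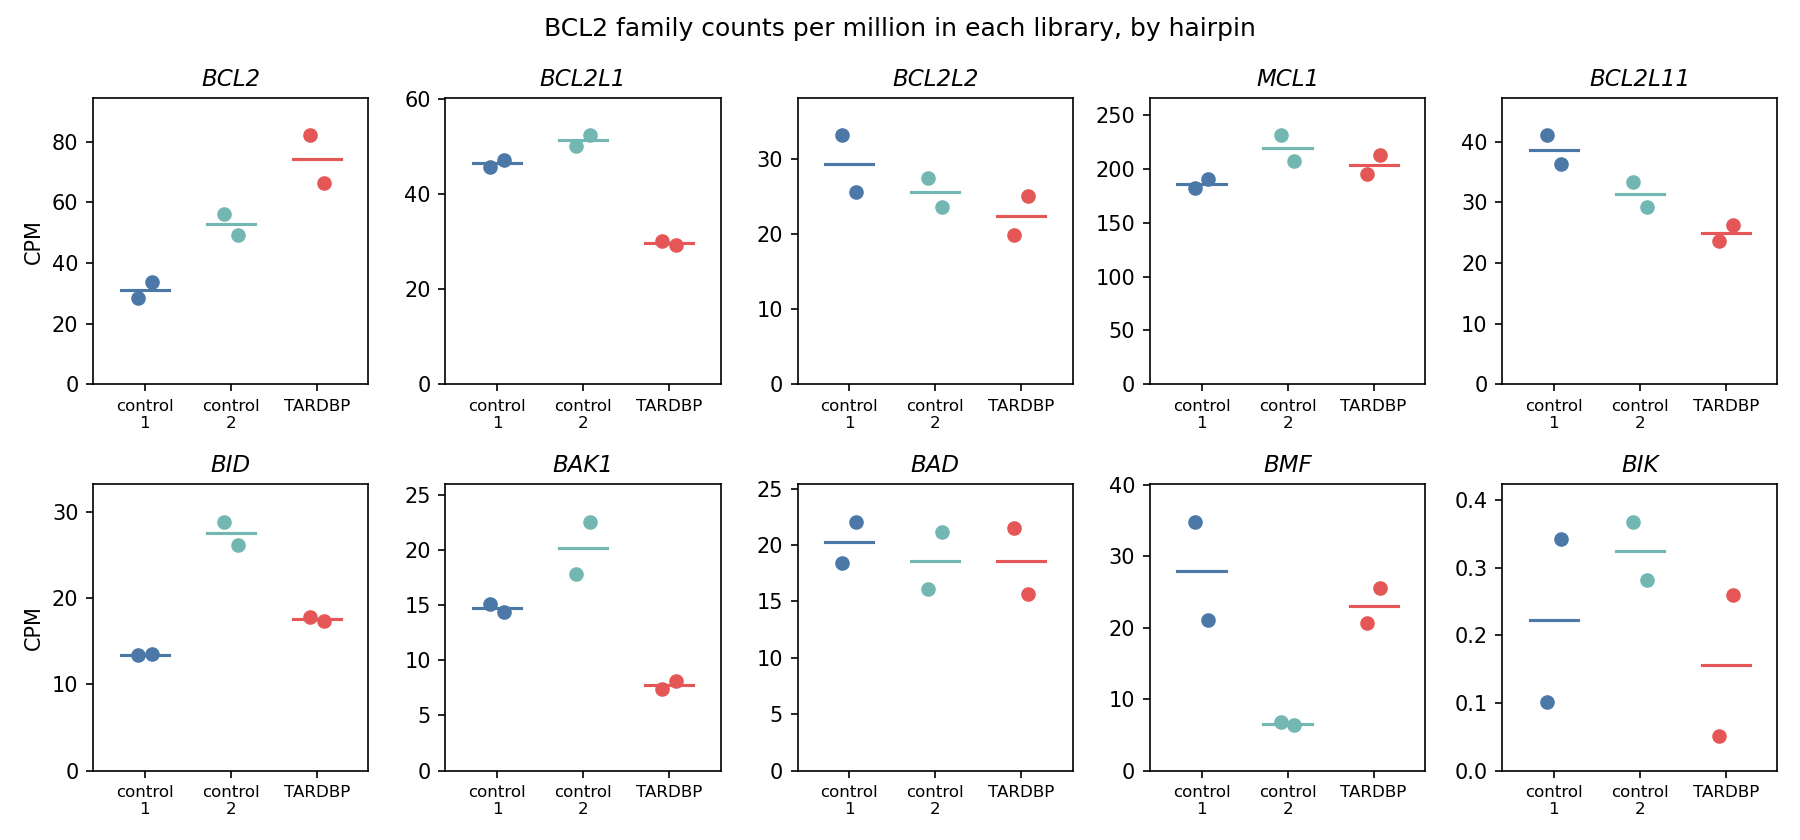
CPM of each of the 10 genes (vertical axis from 0, a separate scale for each gene) in the 2 libraries of control hairpin 1, control hairpin 2 and the TARDBP hairpin; points are libraries and bars are group means. BCL2 was highest and BCL2L1, BCL2L11 and BAK1 were lowest in both TARDBP hairpin libraries, while BMF was lowest in control hairpin 2 and BIK was at most 0.369 CPM.

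With the TARDBP hairpin, BCL2 RNA was higher and BCL2L1, BAK1 and BCL2L11 RNA lower than in all 4 control libraries. BCL2 stood at 1.84 times the mean of both controls (log2 scale), BCL2L1 at 60.8%, BCL2L11 at 71.5% and BAK1 at 44.9%. MCL1, the most abundant of the 10 by counts per length, and BAD did not differ detectably. BID and BMF differed more between the control hairpins than between the TARDBP hairpin and the mean of both controls. Of the 10, 9 passed the filter on low counts and BIK did not. Against the mean of both controls 5 of the 9 were called at an adjusted p below 0.05, 2 higher and 3 lower. Over all 17163 genes and repeat families tested 48.2% were called, 23.9% higher and 24.3% lower, so the share of members called was near that of all features. The members' median log2 fold change was -0.13, beside 0.04 over all features. In 4 of the 9 members both TARDBP hairpin libraries lay beyond all 4 control libraries, 1 above and 3 below, against 46.1% of all features (23.3% above and 22.8% below). In bulk RNA, fewer cells with a transcript and less of it per cell cannot be told apart.

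Among the restraining genes, BCL2 rose. Its level was 82.1 and 66.5 CPM with the TARDBP hairpin, 28.4 and 33.8 CPM with control hairpin 1, and 56.2 and 49.3 CPM with control hairpin 2. The 3 groups did not overlap, and control hairpin 2 lay between the others. The log2 fold change (log2FC) was 0.88 against the mean of both controls (standard error, SE, 0.115; adjusted p = 4.73e-04 by edgeR's quasi-likelihood F-test, corrected over all features by Benjamini and Hochberg). Against control hairpin 1 it was 1.26 (SE 0.139, adjusted p = 2.17e-04), a 2.39-fold rise (95% interval 1.92 to 2.98). Against control hairpin 2 it was 0.50 (SE 0.136, adjusted p = 0.0159), a 1.41-fold rise (1.14 to 1.75). The latter call was lost without TARDBP hairpin replicate 1 (log2FC 0.33, adjusted p = 0.105) and without control hairpin 2 replicate 2 (0.37, adjusted p = 0.137).

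BCL2L1, which encodes BCL-XL and by another splice site the death-promoting BCL-XS, fell. It was at 30.2 and 29.2 CPM with the TARDBP hairpin, 45.7 and 47.3 CPM with control hairpin 1, and 50.2 and 52.4 CPM with control hairpin 2. The libraries of each hairpin lay close together, and both TARDBP hairpin libraries were well below every control. The log2FC was -0.72 against the mean of both controls (SE 0.0829, adjusted p = 2.45e-04), -0.65 against control hairpin 1 (adjusted p = 8.43e-04) and -0.79 against control hairpin 2 (adjusted p = 2.86e-04). Control hairpin 2 against control hairpin 1 gave a log2FC of 0.14, which was not called (adjusted p = 0.241, 95% interval -0.07 to 0.35). Counts per gene do not separate the BCL-XL and BCL-XS isoforms.

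The opposed changes showed in the ratio of BCL2 to BCL2L1 counts within a library, which needs no scaling between libraries. It was 2.72 and 2.28 in the TARDBP hairpin libraries, 0.621 and 0.714 under control hairpin 1, and 1.12 and 0.942 under control hairpin 2. BCL2 had the larger count in both TARDBP hairpin libraries and in 1 library of control hairpin 2. These ratios compare libraries only, since the genes differ in length and the count ratio is not a ratio of transcripts.

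MCL1, a short-lived restraining protein that cells replace quickly, was at 195 and 213 CPM with the TARDBP hairpin, 183 and 190 CPM with control hairpin 1, and 231 and 207 CPM with control hairpin 2. The TARDBP hairpin libraries lay above control hairpin 1 and overlapped control hairpin 2. The log2FC against the mean of both controls was 0.01 (SE 0.0815, adjusted p = 0.922), with a 95% interval of -0.18 to 0.20. Neither single control gave a call (log2FC 0.13 and -0.11, adjusted p = 0.304 and 0.373).

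BCL2L2, the gene of BCL-W, was at 19.8 and 25.1 CPM with the TARDBP hairpin, 33.1 and 25.6 CPM with control hairpin 1, and 27.5 and 23.6 CPM with control hairpin 2. Its log2FC against the mean of both controls was -0.29 and was not called (SE 0.147, adjusted p = 0.141, 95% interval -0.62 to 0.05). Its level is uncertain because the read-through gene BCL2L2-PABPN1 shares 813 exon bases with it on the same strand. The read-through gene was at 27.6 and 46.3 CPM with the TARDBP hairpin and at 36.4 to 47.3 CPM in the control libraries. With the counts of both rows summed, an alternative chosen after seeing the data, the log2FC was -0.20 (adjusted p = 0.351).

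The effector gene BAK1, whose protein forms the pore in the outer mitochondrial membrane, had the largest fall of the 9 tested members against the mean of both controls. It was at 7.35 and 8.15 CPM with the TARDBP hairpin, 15.1 and 14.4 CPM with control hairpin 1, and 17.8 and 22.6 CPM with control hairpin 2. The 3 groups did not overlap. The log2FC was -1.15 against the mean of both controls (SE 0.141, adjusted p = 3.23e-04), -0.93 against control hairpin 1 (adjusted p = 0.00196) and -1.38 against control hairpin 2 (adjusted p = 2.28e-04). BAX, also an effector gene and a p53 target, was at 77.1 ± 4.21 CPM (SD, n = 2) with the TARDBP hairpin. In control hairpins 1 and 2 it was at 71.8 ± 8.09 and 73.7 ± 0.899 CPM. Its log2FC against the mean of both controls was 0.08 (adjusted p = 0.471).

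BCL2L11, the gene of the activator BIM, fell against the mean of both controls. It was at 23.5 and 26.2 CPM with the TARDBP hairpin, 41.0 and 36.3 CPM with control hairpin 1, and 33.4 and 29.2 CPM with control hairpin 2. The groups did not overlap, in the order TARDBP hairpin, control hairpin 2, control hairpin 1. The log2FC was -0.48 against the mean of both controls (SE 0.107, adjusted p = 0.00648) and -0.64 against control hairpin 1 (SE 0.122, adjusted p = 0.00346). Against control hairpin 2 it was -0.33 and was not called (SE 0.122, adjusted p = 0.0514). Without TARDBP hairpin replicate 1 the call against the mean was lost (log2FC -0.41, adjusted p = 0.0539), and without control hairpin 2 replicate 2 the difference from control hairpin 2 was called (-0.46, adjusted p = 0.0460).

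Of the genes annotated on the strand opposite a member in GENCODE, MIR4435-2HG shares 727 exon bases with BCL2L11, and no source used here gives the strand setting of the counting. MIR4435-2HG was at 14.7 and 16.3 CPM with the TARDBP hairpin, 5.25 and 8.52 CPM with control hairpin 1, and 34.7 and 38.2 CPM with control hairpin 2, an order of groups unlike that of BCL2L11. ABALON shares 1424 exon bases with BCL2L1 and was at 1.78 to 4.76 CPM in the 6 libraries. GPR137 shares 404 bases with BAD and was at 19.9 to 36.8 CPM. BMF shares 461 bases with BMF-AS1, BCL2L2 206 with PPP1R3E, and BAK1 91 with GGNBP1. Against the mean of both controls GPR137 was called lower (log2FC -0.51, adjusted p = 0.0224) and PPP1R3E higher (0.82, adjusted p = 0.00924). MIR4435-2HG and ABALON were not called (adjusted p = 0.877 and 0.759). The part of these overlapping genes in the member counts was not tested.

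BID, a BH3-only protein that caspase-8 cleaves to link death receptors to mitochondria, took opposite directions against the 2 control hairpins. It was at 17.8 and 17.3 CPM with the TARDBP hairpin, 13.4 and 13.5 CPM with control hairpin 1, and 28.8 and 26.1 CPM with control hairpin 2. The TARDBP hairpin lay between the controls and no groups overlapped. BID was higher than with control hairpin 1 (log2FC 0.39, SE 0.117, adjusted p = 0.0270) and lower than with control hairpin 2 (-0.65, SE 0.114, adjusted p = 0.00207). The call against control hairpin 1 was lost without any one of TARDBP hairpin replicates 1 and 2, control hairpin 1 replicates 1 and 2, or control hairpin 2 replicate 2 (adjusted p = 0.0507 to 0.105). Against the mean of both controls the log2FC was -0.13 (adjusted p = 0.320), an average of these opposite differences.

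BMF, a BH3-only protein held at the actin cytoskeleton until it is released, was called higher against the mean of both controls (log2FC 0.77, SE 0.195, adjusted p = 0.0115), but its libraries overlapped those of control hairpin 1. It was at 20.7 and 25.5 CPM with the TARDBP hairpin, 34.9 and 21.1 CPM with control hairpin 1, and 6.79 and 6.31 CPM with control hairpin 2. The difference came from control hairpin 2 (log2FC 1.82, SE 0.244, adjusted p = 5.28e-04, a 3.53-fold difference). Against control hairpin 1 the log2FC was -0.27 (adjusted p = 0.347), and without control hairpin 1 replicate 2 it was -0.60 and called (adjusted p = 0.0287). Without TARDBP hairpin replicate 2 the call against the mean was lost (log2FC 0.61, adjusted p = 0.0928).

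BAD, a sensitiser whose phosphorylation by survival kinases keeps it bound to 14-3-3 proteins, was at 21.5 and 15.7 CPM with the TARDBP hairpin, 18.4 and 22.1 CPM with control hairpin 1, and 16.1 and 21.2 CPM with control hairpin 2. The 3 groups overlapped, with a log2FC of -0.06 against the mean of both controls (SE 0.168, adjusted p = 0.778, 95% interval -0.45 to 0.32). BIK, a BH3-only protein of the endoplasmic reticulum, had 1 and 5 counts in the TARDBP hairpin libraries, 2 and 7 under control hairpin 1, and 7 and 6 under control hairpin 2. At 0.0517 to 0.369 CPM it did not pass the filter on low counts. Fitted with no filter, its log2FC was -0.78 against the mean of both controls (adjusted p = 0.490), and a difference between the hairpins was not detectable at this depth.

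**Figure D2:**
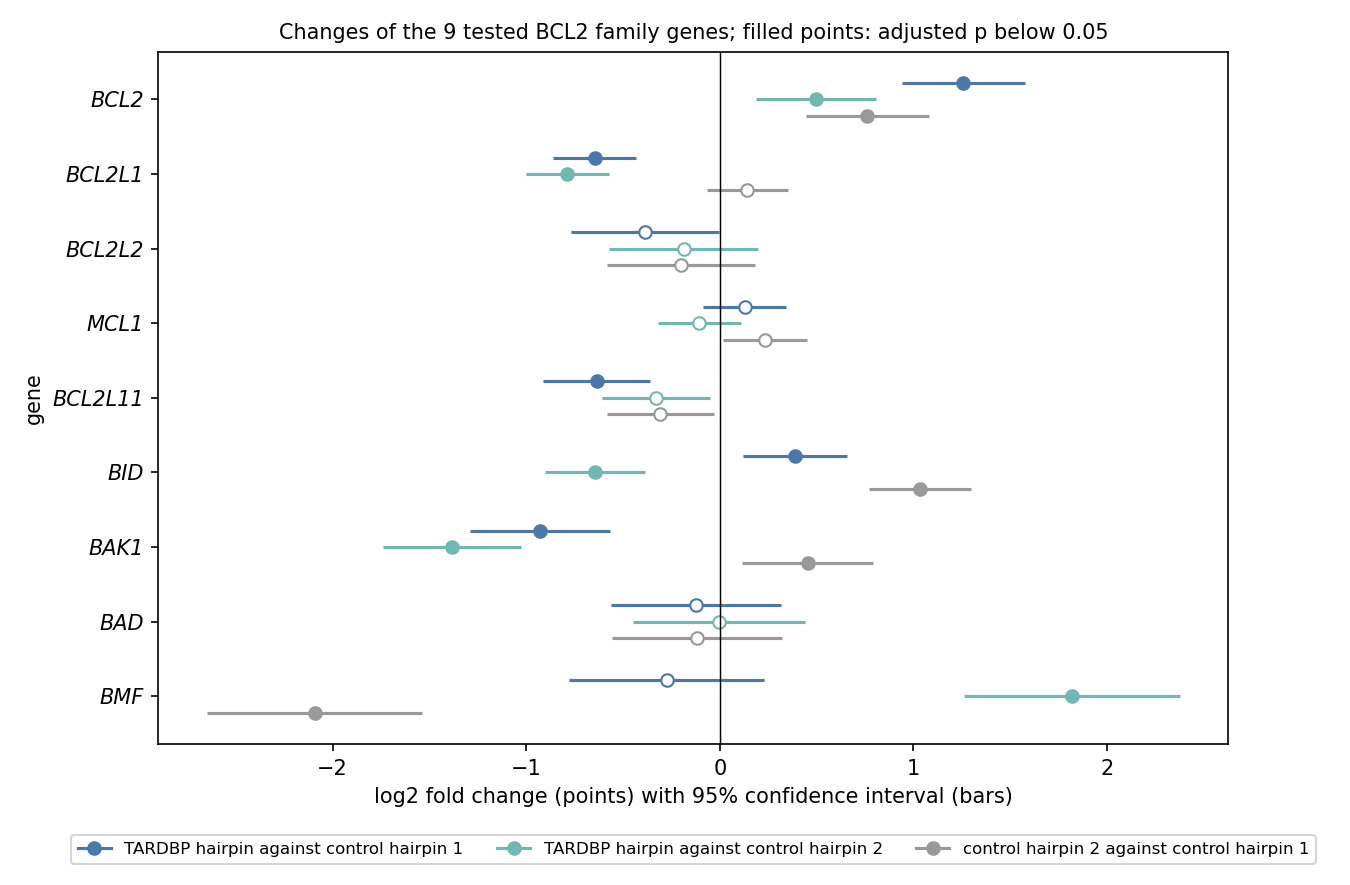
Log2 fold changes (horizontal axis, points) with 95% confidence intervals (bars) of the 9 tested genes against control hairpin 1, against control hairpin 2, and between the control hairpins; filled points are called at an adjusted p below 0.05. BCL2L1 and BAK1 lay left of 0 and BCL2 right of 0 against each control, BID lay on opposite sides, and BMF differed most between the controls (log2FC -2.09).

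Against control hairpin 1 alone, 5 of the 9 members were called, 2 higher (BCL2 and BID) and 3 lower (BCL2L1, BCL2L11 and BAK1), where 42.9% of all features were called (21.1% higher and 21.8% lower). Against control hairpin 2 alone, 5 were called, 2 higher (BCL2 and BMF) and 3 lower (BCL2L1, BID and BAK1), where 50.2% of all features were called (24% higher and 26.2% lower). These comparisons share the TARDBP hairpin libraries. BCL2, BCL2L1 and BAK1 were thus called in the same direction against each control hairpin, and BID was called in opposite directions. The share of all features called against both control hairpins was not taken, so this describes the named genes only.

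The comparison of the control hairpins with each other asks how far these genes vary without a hairpin against TARDBP. Of the 9 members 4 were called, 3 higher with control hairpin 2 (BCL2, BID and BAK1) and 1 lower (BMF), where 43.2% of all features were called (22.8% higher and 20.4% lower). BMF stood at 23.4% of control hairpin 1 (log2FC -2.09, SE 0.243, adjusted p = 3.82e-04), the largest difference of any tested member in any of the 4 comparisons. BID was higher by 1.03 (SE 0.115, adjusted p = 3.25e-04) and BCL2 by 0.76 (SE 0.139, adjusted p = 0.00312). BAK1 was higher by 0.45 (adjusted p = 0.0370), a call lost without control hairpin 1 replicate 1 or 2 or control hairpin 2 replicate 2 (adjusted p = 0.109 to 0.259). For each gene this contrast is also the test of whether its change with the TARDBP hairpin differed by control. The difference was called for BCL2, BID, BAK1 and BMF and not for BCL2L1 (95% interval -0.07 to 0.35), BCL2L11 (adjusted p = 0.0695), MCL1 (0.0746), BCL2L2 (0.362) or BAD (0.648).

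Levels of different genes were compared per kilobase of merged GENCODE exons, an approximation because no source used here gives the authors' gene models. With the TARDBP hairpin MCL1 was highest at 46.6 ± 2.89 CPM per kb (SD, n = 2), followed by BAD at 10.9 ± 2.42, BCL2L1 at 8.97 ± 0.207, BCL2 at 6.32 ± 0.938 and BCL2L2 at 5.36 ± 0.890. The spreads of BAD and BCL2L1, and of BCL2 and BCL2L2, overlapped. BMF, BID, BCL2L11 and BAK1 lay between 3.50 and 4.24 CPM per kb and BIK at 0.163. In control hairpin 1 BCL2L1 stood at 14.0 ± 0.336 and BCL2 at 2.64 ± 0.324 CPM per kb, and in control hairpin 2 at 15.5 ± 0.462 and 4.48 ± 0.411. By this measure BCL2L1 exceeded BCL2 in all 3 groups, by a smaller margin with the TARDBP hairpin.

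The genes whose levels followed BCL2 most closely over the 6 libraries, among 10390 genes averaging 3 or more in log2 CPM, were RNF13, ZBTB38 and CXXC4, with Pearson's r of 0.9959, 0.9946 and 0.9937. For BCL2L1 they were DAB2IP, TMEM183A and MAGEA12, with r of 0.9999, 0.9994 and 0.9989. These are a description of 6 libraries in 3 groups, chosen as the highest of many values.

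The machinery around these proteins was followed in 7 lists of genes. Their counts stand beside 48.2% of all features called against the mean of both controls and 43.2% between the control hairpins. Downstream of the mitochondria, the apoptosome and caspase list had 6 falls and no rise among 10 tested genes of 11 (60% called), with a median log2FC of -0.59 (0.04 over all features). DFFA, an inhibitor of the caspase-activated nuclease, was not called against the mean (0.24, adjusted p = 0.0939) but was higher against control hairpin 1 alone (0.57, adjusted p = 0.00677) and against the mean with upper-quartile scaling (0.37, adjusted p = 0.0179). Between the control hairpins 5 genes of the list were called. The lowest p-values were those of CASP2 (log2FC -0.90, adjusted p = 1.19e-04) and CYCS, the cytochrome c that BAK and BAX release (-0.84, adjusted p = 1.24e-04). Both were also lower against each control alone, CYCS by log2FC -0.55 and -1.12 against control hairpins 1 and 2. Inhibitors of apoptosis and the mitochondrial proteins that oppose them had 7 falls and no rise among 10 tested of 11 (70% called, median -0.42), and 7 were also called between the control hairpins, 4 higher and 3 lower. HTRA2, a mitochondrial protease, was not called against the mean (0.25, adjusted p = 0.0546) but was higher against control hairpin 2 alone (0.43, adjusted p = 0.0110) and against the mean with upper-quartile scaling (adjusted p = 0.00947) or genes only (0.0371). XIAP and BIRC6 lost their calls under those settings. XIAP was at 51.7 ± 1.25 CPM with the TARDBP hairpin, against 81.5 ± 4.33 and 51.1 ± 9.32 CPM in control hairpins 1 and 2. It was lower against control hairpin 1 alone (-0.66, adjusted p = 0.00365). BIRC2 was not called against the mean (0.16, adjusted p = 0.277) but was higher against control hairpin 1 alone (0.42, adjusted p = 0.0360). BIRC3, counted among the falls, was at 1.84 ± 0.325 CPM against 1.44 ± 0.595 and 10.6 ± 0.818 CPM in control hairpins 1 and 2. Against control hairpin 1 alone BIRC3 was not called (0.35, adjusted p = 0.407). BIRC5, the survivin gene, which is transcribed in dividing cells, was at 0.700 ± 0.108 CPM against 7.13 ± 4.11 and 55.0 ± 9.72 CPM (log2FC -4.81, adjusted p = 7.09e-05). DIABLO, which relieves caspases from inhibition, fell (-0.81, adjusted p = 1.53e-04), as did the nuclease gene ENDOG (-1.67, adjusted p = 0.00284). Without TARDBP hairpin replicate 2 the falls in this list numbered 4.

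Upstream, the death receptor list had 3 rises and 1 fall among 8 tested of 10 (median log2FC 0.23). The 50% called was near the share of all features, and 4 were called between the control hairpins. TNFRSF10A, a TRAIL receptor gene, rose against each control alone (0.73 against the mean, adjusted p = 0.00470). FAS (0.55, adjusted p = 0.00489) was called against control hairpin 2 alone (adjusted p = 7.91e-04) and not against control hairpin 1 alone (0.409). CFLAR, an inhibitor of caspase-8, rose by 0.43 (adjusted p = 0.0229) and TNFRSF1A fell by 0.33 (adjusted p = 0.0337), and each was called against control hairpin 2 alone and not against control hairpin 1 alone. CFLAR and TNFRSF1A were not called without TARDBP hairpin replicate 2, control hairpin 1 replicate 2 or control hairpin 2 replicate 2, which left 2 calls in the list, and TNFRSF1A was not called without control hairpin 2 replicate 1 either.

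Among further BCL2 family genes 4 fell and 1 rose of 10 tested of 13 (median log2FC -0.25). The 50% called was near the share of all features, and 5 were called between the control hairpins. BNIP1 (log2FC -0.94, adjusted p = 0.00243) fell against each control alone. HRK, a BH3-only gene of neurons, had 7 and 1 counts in the TARDBP hairpin libraries, 43 and 30 under control hairpin 1, and 11 and 15 under control hairpin 2 (log2FC -2.36, adjusted p = 0.00893), and was not called without TARDBP hairpin replicate 2 (-1.57, adjusted p = 0.0585). The mitophagy receptor genes BNIP3 (-0.42) and BNIP3L (-0.39) fell and BCL2L13 rose (0.50). Each of HRK, BNIP3, BNIP3L and BCL2L13 was called against 1 control alone, HRK and BNIP3L against control hairpin 1 and BNIP3 and BCL2L13 against control hairpin 2. The calls of BNIP3 and BNIP3L were lost without TARDBP hairpin replicates 1 and 2 respectively (adjusted p = 0.0937 and 0.0684), and without replicate 2 the list had 3 calls. Of the p53-responsive genes set aside, PMAIP1 fell more against control hairpin 2 (log2FC -1.48) than against control hairpin 1 (-0.47; difference between controls 1.01, adjusted p = 6.31e-04). BBC3 fell against the mean of both controls (-0.29, adjusted p = 0.0427), a call lost without TARDBP hairpin replicate 2, either replicate of control hairpin 1 or control hairpin 2 replicate 2 (adjusted p = 0.0679 to 0.277). It was lower against control hairpin 1 (-0.50, adjusted p = 0.00798) and not called against control hairpin 2 (-0.07, adjusted p = 0.619).

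Proteins that dock or anchor the members had 6 falls and 4 rises among 16 tested of 17 (62.5% called, median log2FC -0.13). More of them, 12 of 16 (75%, median 0.34), were called between the control hairpins. MTCH2, the mitochondrial receptor for cleaved BID, was at 24.0 ± 0.398 CPM against 49.8 ± 0.173 and 51.8 ± 6.98 CPM (log2FC -1.08, adjusted p = 1.02e-04). The 14-3-3 gene YWHAH fell (-0.70, adjusted p = 0.00130), as did the calcium channel gene ITPR1 (-0.59, adjusted p = 0.00123), while its relative ITPR3 rose (1.10, adjusted p = 3.84e-04). ITPR2 (0.45) and the autophagy gene BECN1 (0.44), whose protein binds BCL2, also rose, BECN1 with a call against control hairpin 2 alone. ITPR1 was called lower against control hairpin 1 alone. ITPR2 was higher against control hairpin 1 alone (1.09, adjusted p = 8.33e-05) and not called against control hairpin 2 alone (-0.20, adjusted p = 0.122). The rise of VDAC1 against the mean (0.42, adjusted p = 0.00644) averaged opposite differences. VDAC1 was at 112 ± 0.245 CPM with the TARDBP hairpin, against 43.9 ± 5.57 and 161 ± 12.8 CPM in control hairpins 1 and 2.

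Kinases, ligases and FOXO factors that act on the members had 9 falls and 4 rises among 22 tested of 22 (59.1% called, median log2FC -0.20), and 11 were called between the control hairpins. FOXO3, a factor known to drive BCL2L11, was at 89.2 ± 4.73 CPM against 146 ± 4.14 and 141 ± 4.59 CPM (log2FC -0.69, adjusted p = 2.14e-04). FOXO1, its relative, was at 31.0 ± 1.05 CPM against 13.0 ± 1.04 and 15.2 ± 1.62 CPM (1.14, adjusted p = 8.84e-05). AKT1, the survival kinase that phosphorylates BAD and the FOXO factors, fell (-0.79, adjusted p = 1.21e-04). BTRC, of a ubiquitin ligase, fell (-1.07, adjusted p = 2.91e-04), USP9X, a deubiquitinase that stabilises MCL1, rose (0.48, adjusted p = 0.00102), and the kinase gene MAPK3 rose (0.84, adjusted p = 0.00147). FOXO1, FOXO3, AKT1, BTRC, USP9X and MAPK3 were each called in the same direction against each control alone.

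**Figure D3:**
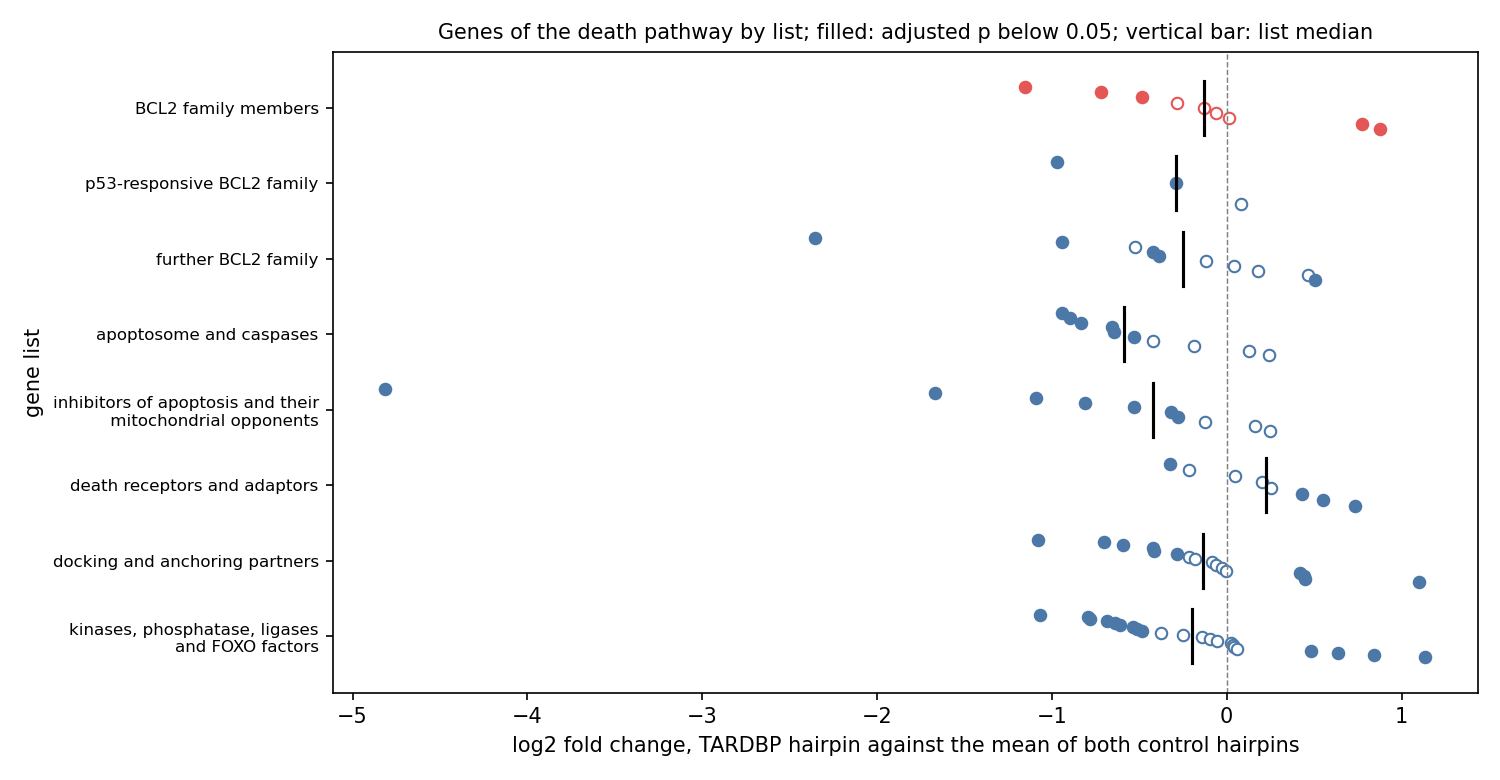
Log2 fold change with the TARDBP hairpin against the mean of both controls (horizontal axis) of every tested gene in each list (rows); filled points are called at an adjusted p below 0.05 and vertical bars are list medians. The BCL2 family members spread on both sides of 0 (median -0.13). In this comparison the called genes of the caspase list and of the inhibitor list were all lower. Under other settings or against a single control some genes of these lists were called higher, among them DFFA, HTRA2 and BIRC2.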

How the data were processed

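Reads were demultiplexed and aligned by the authors with bcl2fastq and STAR 2.5.2b, and the build named is hg19, according to the submitters' processing notes. Each deposited file, per the file headers and values, held raw counts of 1 library for 27961 genes and 992 repeat families. No source used here gives the counting tool, gene models or strand setting. All features were fitted together in R 4.3.3 with edgeR 4.0.16. Its filterByExpr (minimum count 10, minimum total 15) left 17163 of 28953 features, and libraries were scaled by TMM. A quasi-likelihood model of 3 groups was fitted to the 6 libraries (3 residual degrees of freedom), with Benjamini-Hochberg adjustment over the 17163 features. Features with an adjusted p below 0.05 are said to be called. SE was the absolute log2FC over the root of F, and 95% intervals used the t distribution of the fit. The code was tested on simulated data.

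The members and the lists were chosen with earlier results of these data known. Of a list, all called genes were named where there were 5 or fewer, otherwise the 3 with the lowest p in each direction, of which 1 gene is not reported here. BAX, EPCAM, DFFA, HTRA2, XIAP, BIRC2, BIRC3, BIRC6, TRADD, VDAC1 and the genes that overlap a member were added after their values were seen. So were the separate values of DBH and GATA3. Alternatives were RLE and upper-quartile scaling, no filter, DESeq2 1.42.0, genes without repeat families, pooled controls, a replicate block, a test against 1.5-fold, and each library left out.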

Additional observations from a re-analysis of the deposited data

How the results depend on the processing

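No called value reversed direction in the alternatives run. The number of members called against the mean of both controls stayed at 5 with RLE or upper-quartile scaling, no filter, DESeq2, genes only and the replicate block. With the controls pooled as 1 group of 4 it was 2 (BCL2L1 and BAK1), and BCL2 (adjusted p = 0.0972), BCL2L11 (0.0977) and BMF (0.714) were not called. Pooling took called features of all kinds from 8269 to 2572. It took calls from 2 to 0 in the p53-responsive list, 5 to 1 in further BCL2 family genes, 7 to 3 in inhibitors of apoptosis, 4 to 1 in death receptors, 10 to 3 in docking partners and 13 to 6 in kinases, ligases and FOXO factors. In the pooled fit the difference between the control hairpins counts as spread within their group. Its share in the lost calls was not tested. Tested against a 1.5-fold change, 2 members were called against the mean of both controls (BCL2 and BAK1), where 2462 of 17163 features were called. Under this test 1 member was called against control hairpin 1 (BCL2), 3 against control hairpin 2 and 2 between the controls. The number over all features was not taken for the latter comparisons, so these member counts have nothing to stand beside. When each library was left out in turn, its group held 1 library, and the number of members called in those fits is not reported. A library left alone in its group is assumed to vary like the other groups.

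BCL2L11 against control hairpin 2 was called with RLE scaling (log2FC -0.34, adjusted p = 0.0449). It was called between the controls with upper-quartile scaling (adjusted p = 0.0446) and genes only (0.0497). BID against control hairpin 1 was not called by DESeq2 (adjusted p = 0.0735). BAK1 between the controls was not called by DESeq2 (0.0576) or with no filter (0.0562), and BCL2L2 against control hairpin 1 was called without control hairpin 1 replicate 2 (0.0461). Upper-quartile scaling moved the median log2FC of all features from 0.04 to 0.17, and TNFRSF1A (adjusted p = 0.142), BNIP3L (log2FC -0.27), XIAP (adjusted p = 0.178) and BIRC6 (0.109) were then among those not called. It added rises of DFFA (log2FC 0.37, adjusted p = 0.0179), HTRA2 (0.37, 0.00947) and TRADD (0.38, 0.0273). The p53-responsive list had 1 call in place of 2 with upper-quartile scaling, DESeq2, genes only or the replicate block.

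Whether the replicate numbers pair the libraries is not known. Deviations of replicate 1 from the group mean correlated at -0.23 and -0.25 between the TARDBP hairpin and control hairpins 1 and 2, and at 0.23 between the controls. These values are of similar size and differ in sign, so they do not settle the pairing. With the replicate block, 5, 5, 5 and 4 members were called in the 4 comparisons, and no member's call changed. Called features of all kinds numbered 7643 against the mean of both controls, and their number was not taken for the other comparisons. BBC3 (adjusted p = 0.0693) and TNFRSF1A (0.0557) were then not called. Depth limits BIK, at 1 to 7 counts per library.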
